A study of Mus musculus with 7 samples.

Results

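Septins are GTP-binding proteins of the cytoskeleton. In the deposited count table of this series the mouse septin genes stood under names that a spreadsheet had turned into dates, so that 7-Sep is septin 7 and 11-Sep is septin 11. The 10 rows described here were taken by name, 1-Sep, 2-Sep, 4-Sep, 5-Sep, 6-Sep, 7-Sep, 8-Sep, 9-Sep, 10-Sep and 11-Sep, of 24421 rows in all. They were chosen with earlier results of these data known. Further septin rows, with few or no counts, were left out and are described under Other observations. The row 15-Sep, a selenoprotein gene, was left out.

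The study set fibroblasts of a breast tumor model against cells of the normal mammary fat pad, and its title places the RNA data beside DNA methylation and the transcription factor RUNX1. pCAF, with 3 libraries, were cancer-associated fibroblasts of BALB/c females that had received 100000 4T1-luc cells, a mouse mammary carcinoma line with luciferase, in a mammary fat pad. Tumors were taken at 1 cm, and the cells were sorted as negative for Ter119, CD45 and EpCAM and positive for PDPN (podoplanin), which many fibroblasts carry on their surface. NMF, with 4 libraries, were fat pad cells of untreated BALB/c mice, sorted with the same negative markers but not on PDPN. The labelled ages were 8 weeks for pCAF mice and 12 weeks for NMF mice, whereas the design text called the mice age matched. Tumors and fat pads were also digested with different collagenases. The selection field of pCAF replicate 3 read PDPN negative, against its source name. The titles call the libraries biological replicates, but no label named the animals behind them, and the p-values below cover the spread among 7 libraries.

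Septins of different homology groups join end to end into rod-shaped oligomers, which form filaments, rings and gauzes on membranes, actin bundles and microtubules. They act as scaffolds at the cleavage furrow and as diffusion barriers, and in fibroblasts septin filaments run along actin stress fibers. Septin 7 has no close relative that replaces it in the oligomer, while septins 1, 2, 4 and 5 (the SEPT2 group) and septins 6, 8, 10 and 11 (the SEPT6 group) can stand in for one another within their group. Septin 9, of the SEPT3 group, occupies the remaining position in the longer oligomers.

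Of the 10 rows, 7-Sep, 2-Sep and 11-Sep rose in pCAF and 4-Sep fell. Septin 7 rose most, 4.01-fold, and 4-Sep fell by 2.19 on the log2 scale. These 4 calls came from each of the homology groups except that of septin 9. The promoters of these 4 genes are shown first, because they carry the changed rows and because the study paired its RNA data with DNA methylation, which in mammals falls on the cytosine of CG pairs. Each line gives 250 bases before and 50 bases after a RefSeq start site in GRCm38.p6, the assembly that mm10 denotes, on the plus strand. Where RefSeq had several start sites, the one with the most CG pairs is printed. Capitals mark every CG pair. The windows lie at chr9:25252642-25252941 for septin 7, chr1:93478811-93479110 for septin 2, chr5:93093166-93093465 for septin 11 and chr11:87578170-87578469 for septin 4. Those of septins 7 and 4 belong to start sites inside the gene spans given below, which begin at 25252439 and 87568903.
Septin7: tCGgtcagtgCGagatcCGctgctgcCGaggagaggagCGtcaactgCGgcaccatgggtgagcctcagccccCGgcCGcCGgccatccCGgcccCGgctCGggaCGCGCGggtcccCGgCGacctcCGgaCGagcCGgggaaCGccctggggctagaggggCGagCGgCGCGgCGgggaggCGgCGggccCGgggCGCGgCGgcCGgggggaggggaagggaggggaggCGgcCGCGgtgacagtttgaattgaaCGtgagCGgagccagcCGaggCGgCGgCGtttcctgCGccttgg
Septin2: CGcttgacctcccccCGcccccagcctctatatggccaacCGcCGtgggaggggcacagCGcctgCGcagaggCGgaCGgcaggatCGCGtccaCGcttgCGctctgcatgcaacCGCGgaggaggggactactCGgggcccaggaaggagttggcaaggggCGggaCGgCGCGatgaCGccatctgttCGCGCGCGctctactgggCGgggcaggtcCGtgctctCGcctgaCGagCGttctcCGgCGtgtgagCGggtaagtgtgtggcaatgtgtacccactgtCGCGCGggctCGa
Septin11: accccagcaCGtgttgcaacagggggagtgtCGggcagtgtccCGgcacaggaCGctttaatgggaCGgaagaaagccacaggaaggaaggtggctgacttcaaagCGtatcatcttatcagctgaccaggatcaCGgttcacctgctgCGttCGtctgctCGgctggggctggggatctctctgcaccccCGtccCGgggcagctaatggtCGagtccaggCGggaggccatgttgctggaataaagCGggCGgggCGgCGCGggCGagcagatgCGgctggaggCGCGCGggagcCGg
Septin4: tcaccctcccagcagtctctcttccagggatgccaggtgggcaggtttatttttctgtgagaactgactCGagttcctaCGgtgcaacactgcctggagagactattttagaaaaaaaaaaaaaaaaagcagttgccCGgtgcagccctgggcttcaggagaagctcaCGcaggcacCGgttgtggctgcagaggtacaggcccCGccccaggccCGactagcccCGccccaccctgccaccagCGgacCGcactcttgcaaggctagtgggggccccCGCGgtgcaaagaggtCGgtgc

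The septin 7 window held 43 CG pairs, more than 97.4% of the 32851 promoter windows in the RefSeq table, while its other start site held 14, more than 63.7%. The printed windows of septins 7, 2 and 4 were picked for their CG pairs and the windows they are ranked against were not, so these ranks are high by choice. The septin 2 window held 36 pairs, more than 93.8% of windows, with 29 at its other start site. Septin 11, with a single start site, held 25, more than 81.6%. The septin 4 window held 13 pairs, more than 62.1% of windows, and its other start sites held 1, 11 and 5. The median over all windows was 7. Among all 16 windows of the 7 septin rows with an entry, which were 2-Sep, 4-Sep, 7-Sep, 8-Sep, 9-Sep, 10-Sep and 11-Sep, CG pairs ran from 1 to 43. The rows 1-Sep, 5-Sep and 6-Sep had no entry.

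Short letter strings known as factor motifs were counted on both strands of these windows. The RUNX letters TGTGGT occurred in 0 of the 16 septin windows and in 16.8% of all windows. The 16 windows come from 7 genes and some of them overlap, so they are too few to tell these shares apart. The TEAD letters GGAATG occurred in 1 septin 4 window and 1 septin 9 window, and in 14.7% of all windows. The GC box letters GGGCGG, found in 35.7% of all windows, occurred in the printed windows of septin 2 (3 matches), septin 11 (2 matches) and septin 4 (2 matches) and had 0 matches in that of septin 7. CCAAT, found in 37.4% of all windows, occurred 2 times in a septin 4 window that is not printed and 1 time in a septin 9 window. These are counts of letters, and whether a factor binds there was not measured.

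Counts were of reads from the 3' ends of polyadenylated RNA. They were scaled to CPM, counts per 1000000 library counts, with TMM factors, which set the libraries on a common scale by the bulk of their genes, and are not divided by transcript length. The groups were compared with edgeR's quasi-likelihood test over the 10535 rows with enough counts, and a row was called at a Benjamini-Hochberg adjusted p under 0.05. Of the septin rows 9 passed the count filter and 6-Sep did not. Over all tested rows 14.3% were called higher and 14.2% lower in pCAF, against 3 and 1 of the 9 septin rows. The groups did not overlap, with pCAF above, in 19.0% of all tested rows and, with pCAF below, in 21.4%, which among the septin rows held for 3 and 1.

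Library totals ran from 1885039 to 4990070 counts. In each group 1 library stood apart, replicate 1 in pCAF and replicate 4 in NMF. Fits without them are given beside the results they moved most. Both were picked from these data, and without them 2802 rows were called higher and 2913 lower, against 1503 and 1491. A call gained only by leaving them out is therefore no separate support. pCAF replicate 1 had counts for 11090 rows, against 13222 to 14353 in the other libraries. Pairs of libraries were compared by chi-square per degree of freedom, over rows with at least 20 counts in the pair. It was 44.3 and 46.8 between pCAF replicate 1 and the other pCAF libraries, and 3.49 between those. Between NMF replicate 4 and the other NMF libraries it was 38.8 to 43.4, and among those 7.05 to 11.1. Of 9 fibroblast markers 5 rose and 0 fell, and they summed to between 71027 and 81853 CPM in pCAF and between 22834 and 42442 CPM in NMF. Pdpn, the sort marker, ran from 281 to 987 CPM in pCAF and from 44.1 to 58.4 CPM in NMF. All 12 blood endothelial markers fell (summed level 50.7 to 54.9 CPM in pCAF, 1864 to 2945 CPM in NMF), as did all 8 tested adipocyte markers of 10 (12.2 to 43.9 against 616 to 1036 CPM) and all 6 tested Schwann cell markers of 7 (4.99 to 16.3 against 260 to 1015 CPM). The adipocyte genes Plin1, Lep and Cidec and the Schwann cell genes Sox10, Foxd3 and Erbb3 had no count in pCAF, and Erbb3 had none in NMF either. Immune markers summed to between 18.8 and 47.9 CPM in pCAF and between 14.6 and 164 CPM in NMF, with Ptprc, which encodes CD45, at 0 in pCAF. Of the 10 pericyte and vascular smooth muscle markers 3 rose (Acta2, Cnn1 and Des) and 3 fell (Rgs5, Notch3 and Higd1b), with sums of 428 to 651 CPM in pCAF and 373 to 576 CPM in NMF. Of 7 tested epithelial markers 4 fell, and of 3 tested lymphatic markers 1 rose and 1 fell. In sorted bulk samples such as these, a smaller number of cells of a type and less RNA per cell cannot be told apart. Whether other cells in NMF had a part in the septin differences was not tested.

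Septin 7 is the subunit that nearly every septin oligomer contains. The row 7-Sep (mm10 chromosome 9, 25252439 to 25308571, plus strand) held 258, 276 and 351 counts in pCAF and 72, 94, 92 and 338 counts in NMF. Scaled, this gave 143, 155 and 195 CPM in pCAF and 27.8, 39.7, 32.4 and 63.1 CPM in NMF. Each of the 3 pCAF libraries lay above the highest NMF library, which was replicate 4. The mean was 164 ± 26.9 CPM in pCAF (SD, n = 3) and 40.8 ± 15.7 CPM in NMF (SD, n = 4). On the log2 scale the fold change was 2.00 (SE 0.32, 95% interval 1.30 to 2.71, edgeR adjusted p = 0.00128). Without pCAF replicate 1 and NMF replicate 4 together the fold was 5.23.

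**Figure D1:**
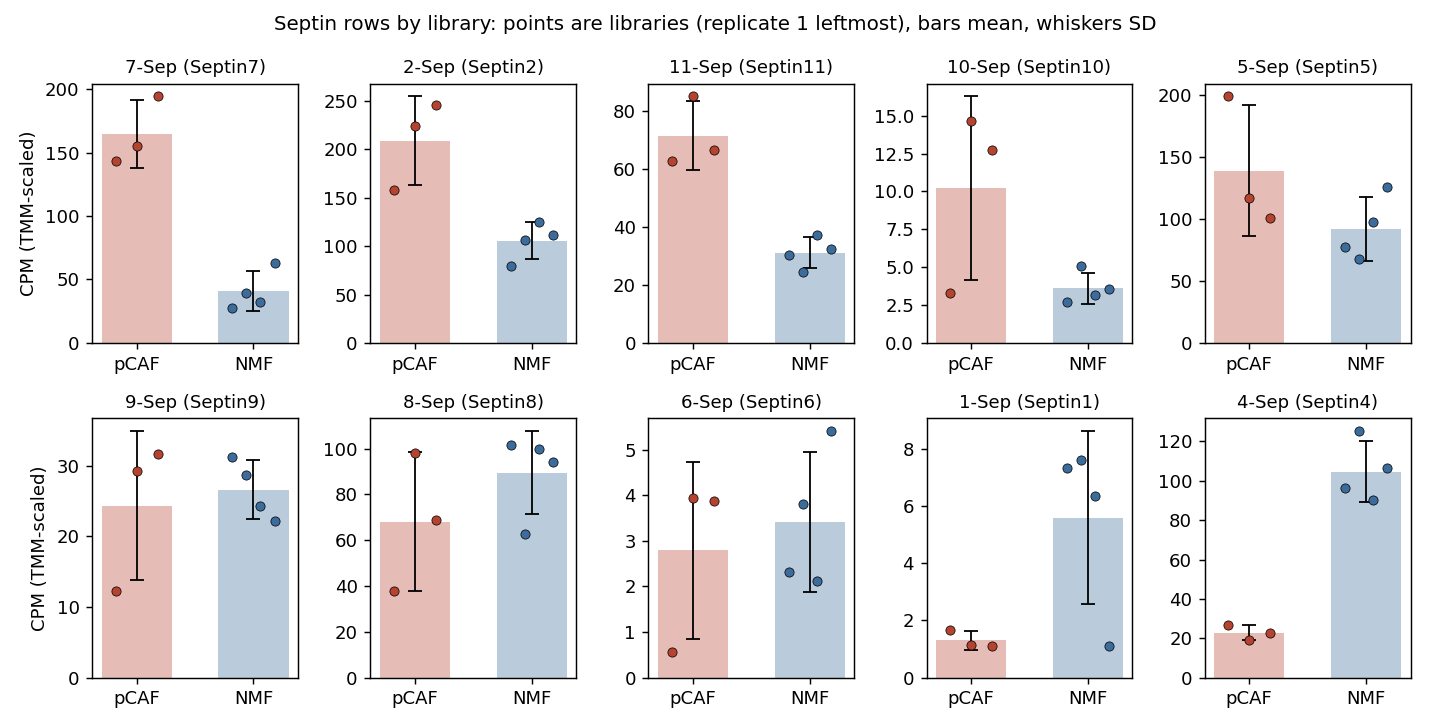
CPM of the 10 septin rows, 1 panel per row with its own linear axis from 0; points are libraries in replicate order, bars group means and whiskers SD (n = 3 pCAF, n = 4 NMF). The groups do not overlap for 7-Sep, 2-Sep and 11-Sep, where pCAF lay above, and for 4-Sep, where pCAF lay below.

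In the SEPT2 group 2-Sep rose and 4-Sep fell, and 5-Sep and 1-Sep did not pass. Septin 2, which binds non-muscle myosin II and is the widely expressed member of its group, rose 1.98-fold. The row 2-Sep (chromosome 1, 93478964 to 93510260, plus strand), which GENCODE M21 lists under 2 overlapping gene identifiers, stood at 157, 224 and 246 CPM in pCAF and at 79.95, 106, 125.3 and 112 CPM in NMF. All pCAF libraries lay above all NMF libraries, the nearest libraries being pCAF replicate 1 and NMF replicate 3. The means were 209 ± 46.1 CPM in pCAF and 106 ± 19.0 CPM in NMF, and the log2 fold change was 0.98 (SE 0.26, 95% interval 0.40 to 1.57, edgeR adjusted p = 0.0186). This call did not hold with library totals as the scale (adjusted p = 0.0624), nor without pCAF replicate 2 (0.0642), pCAF replicate 3 (0.0770), NMF replicate 1 (0.0644) or NMF replicate 2 (0.0561). Over all alternatives the adjusted p of 2-Sep ran from 6.39e-05 to 0.0770 and its log2 fold change from 0.76 to 1.17.

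Septin 4 is known in mice from the ring of the sperm tail and from liver stellate cells, and it fell in pCAF. The row 4-Sep (chromosome 11, 87568903 to 87590539, plus strand) held 48, 34 and 41 counts in pCAF and 250, 297, 256 and 571 counts in NMF. On the CPM scale it stood at 26.6, 19.2 and 22.7 in pCAF and 96.6, 125.4, 90.1 and 107 in NMF. The highest pCAF library stood well below the lowest NMF library, and the libraries within each group were close together. The means were 22.8 ± 3.73 CPM in pCAF and 105 ± 15.4 CPM in NMF. Its log2 fold change was -2.19 (SE 0.27, 95% interval -2.80 to -1.59, edgeR adjusted p = 3.39e-04), and over all alternatives it ran from -2.44 to -2.08. Within the last 1000 bp of its annotated coding transcripts, 45 bp overlapped exons of Gm11492 on the same strand. Gm11492 ends at 87569250, near the start of the 4-Sep span and far from its 3' end at 87590539. In the last 300 bp a stretch of 81 bp matched a transcript of Gm49601 at 96.3% identity. The Schwann cell, adipocyte and endothelial marker sums given above fell in the same comparison. Over NMF replicates 1 to 4 the Schwann cell sum was 499, 724, 260 and 1015 CPM. Replicate 3 was the lowest library for both that sum and 4-Sep, while replicate 4 had the highest sum and replicate 2 the highest 4-Sep level. The blood endothelial sum was 2691, 2945, 1864 and 2037 CPM, highest in replicate 2 and lowest in replicate 3, as 4-Sep was. The adipocyte sum was 1036, 827, 619 and 616 CPM, highest in replicate 1 and lowest in replicate 4. The part of these cells in the 4-Sep counts was not tested.

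Septin 5, a septin of neurons and platelets that binds syntaxins and acts in exocytosis, did not pass the test. The row 5-Sep (chromosome 16, 18620502 to 18629954, minus strand) stood at 199, 117 and 100 CPM in pCAF and at 77.3, 67.6, 97.2 and 126 CPM in NMF. The groups overlapped, and pCAF replicate 1 was the highest library of all. The log2 fold change was 0.59 (95% interval -0.12 to 1.31, edgeR adjusted p = 0.200), and without pCAF replicate 1 it was 0.23 (adjusted p = 0.531). What this row counts is uncertain. Of the 3075 bp at the 3' ends of its transcripts, 1593 bp overlapped exons of Gp1bb on the same strand and 1866 bp overlapped exons of Gm49601. Gp1bb, a subunit of the platelet receptor for von Willebrand factor, had 17.1 ± 5.2 CPM in pCAF and 9.17 ± 4.72 CPM in NMF. The platelet genes Gp9 and Gp1ba had no count in pCAF, and Gp1ba had none in NMF. Platelet markers as a list summed to between 22.7 and 35.5 CPM in pCAF and between 50.2 and 83.1 CPM in NMF, with 0 of the 3 tested members higher and 2 lower.

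Septin 1, which is expressed mainly in lymphocytes, was scarce. The row 1-Sep (chromosome 7, 127214447 to 127233130, minus strand) held 3, 2 and 2 counts in pCAF and 19, 18, 18 and 6 counts in NMF. NMF replicate 4, at 1.12 CPM, lay among the pCAF libraries, which ran from 1.11 to 1.66 CPM, while NMF replicates 1 to 3 ran from 6.34 to 7.60 CPM. The log2 fold change of -2.04 did not pass (95% interval -3.88 to -0.19, edgeR adjusted p = 0.0930). It passed without NMF replicate 4 (log2 fold change -2.37, adjusted p = 0.0144), without both libraries that stood apart (0.00271) and after thinning all libraries to the smallest total (0.0372), and over all alternatives the adjusted p ran from 0.00271 to 0.444. The immune marker sum moved with it inside NMF, at 14.6 CPM in replicate 4 and between 111 and 164 CPM in replicates 1 to 3. A large part of that sum was Lyz2, at 55.2, 55.3, 81.0 and 2.61 CPM over NMF replicates 1 to 4. This pattern was not particular to immune markers. The epithelial sum was also lowest in NMF replicate 4, at 187 CPM against 340 to 564 CPM, whereas the Schwann cell and fibroblast sums were highest there. The part of immune cells in these counts was not tested.

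The SEPT6 group had 1 called row of its 3 tested rows. Septin 11, a broadly expressed member of this group, rose 2.29-fold. The row 11-Sep (chromosome 5, 93093437 to 93176447, plus strand) held 113, 151 and 120 counts in pCAF and 78, 58, 106 and 174 counts in NMF. The corresponding levels were 62.7, 85.1 and 66.5 CPM in pCAF and 30.1, 24.5, 37.3 and 32.5 CPM in NMF. The lowest pCAF library lay above the highest NMF library, and no library stood far from its own group. The means were 71.4 ± 12.0 CPM in pCAF and 31.1 ± 5.33 CPM in NMF, with a log2 fold change of 1.20 (SE 0.27, 95% interval 0.60 to 1.79, edgeR adjusted p = 0.00824). Across all alternatives the adjusted p of 11-Sep stayed between 1.09e-04 and 0.0476.

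Septin 10, of the same group, was low. The row 10-Sep (chromosome 10, 59141627 to 59221847, minus strand) held 6, 26 and 23 counts in pCAF and 7, 12, 9 and 19 counts in NMF. pCAF replicate 1, at 3.33 CPM, lay within the NMF range of 2.70 to 5.07 CPM, whereas pCAF replicates 2 and 3 stood at 14.6 and 12.7 CPM. The log2 fold change of 1.49 did not pass (95% interval 0.17 to 2.81, edgeR adjusted p = 0.0861). Without pCAF replicate 1 it was 1.91 and passed (adjusted p = 0.00769), and without both libraries that stood apart the adjusted p was 0.00146. Over all alternatives the adjusted p of 10-Sep ran from 0.00146 to 0.300.

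Septin 8, another member of the SEPT6 group, did not pass. The row 8-Sep (chromosome 11, 53519257 to 53549565, plus strand) stood at 37.7, 98.0 and 68.7 CPM in pCAF and at 102, 62.5, 99.6 and 94.3 CPM in NMF. The lowest library of all was pCAF replicate 1, and the pCAF values covered most of the NMF range. It had a log2 fold change of -0.39, with a 95% interval of -1.16 to 0.37 (edgeR adjusted p = 0.431). Without pCAF replicate 1 it was -0.11 (adjusted p = 0.771). Septin 6 was close to the limit of detection. The row 6-Sep (chromosome X, 36911326 to 36991794, minus strand) held 1, 7 and 7 counts in pCAF and 6, 9, 6 and 29 counts in NMF, and was below the count filter. Its 3' ends overlapped an antisense gene, Gm15008, by 308 bp, and strand use in counting was not given in the sources used here. With no filter the log2 fold change of 6-Sep was -0.34 (95% interval -2.14 to 1.47, adjusted p = 0.806).

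Septin 9 bundles actin filaments and microtubules and takes part in the longer septin rods. The row 9-Sep (chromosome 11, 117199661 to 117362325, plus strand) stood at 12.2, 29.3 and 31.6 CPM in pCAF and at 31.3, 28.7, 24.3 and 22.2 CPM in NMF. Apart from the low pCAF replicate 1, the pCAF libraries lay inside or just above the NMF range. Its log2 fold change was -0.12 (95% interval -0.96 to 0.71, edgeR adjusted p = 0.839). Its sign turned without pCAF replicate 1, where it was 0.19, and without both libraries that stood apart, where it was 0.11. The interval leaves room for differences of both signs.

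**Figure D2:**
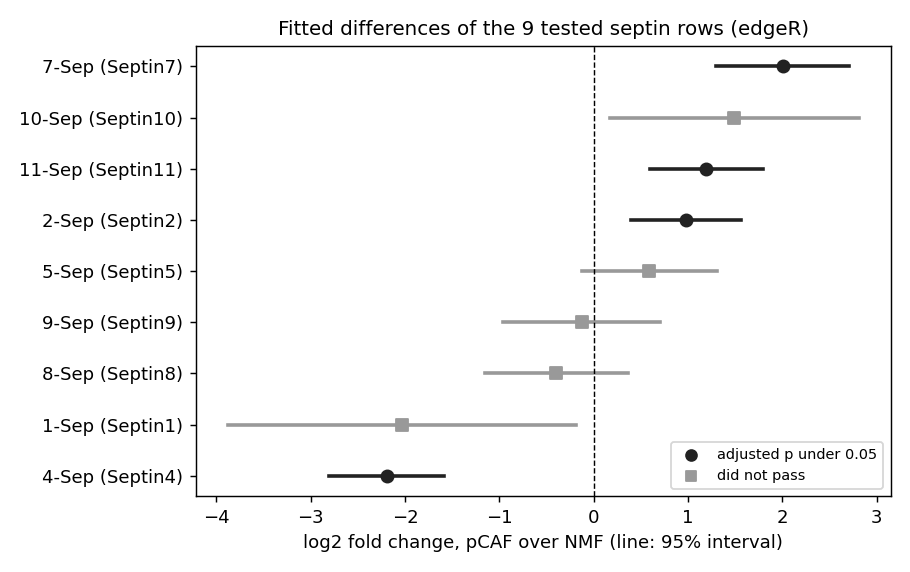
Log2 fold change of the 9 tested septin rows, pCAF over NMF, with the 95% interval as a line; black circles passed the threshold and grey squares did not. The intervals of 7-Sep, 10-Sep, 11-Sep and 2-Sep lie to the right of 0 and those of 4-Sep and 1-Sep to the left, although 10-Sep and 1-Sep did not pass after adjustment. The widest interval, that of 1-Sep, belongs to a row with 2 or 3 counts in each pCAF library.

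The make-up of the septin counts differed between the groups. The 10 rows together held 713 ± 59.7 CPM in pCAF (SD, n = 3) and 503 ± 49.7 CPM in NMF (SD, n = 4). Behind these stood 1162, 1327 and 1350 counts in the pCAF libraries and 1183, 1115, 1471 and 3034 counts in the NMF libraries. As 3' end counts, the shares below compare groups and not the amounts of different septins.

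Septin 7 made up 22.2%, 20.8% and 26% of the septin counts in the pCAF libraries and 6.09%, 8.43%, 6.25% and 11.1% in the NMF libraries. Septin 4 made up 4.13%, 2.56% and 3.04% in pCAF and 21.1%, 26.6%, 17.4% and 18.8% in NMF. For both, the groups did not overlap. Septin 2 held a mean share of 29.1 ± 4.29% in pCAF and 21.0 ± 2.97% in NMF, and septin 11 held 9.998 ± 1.27% in pCAF and 6.18 ± 0.89% in NMF. The share of septin 8 was 9.38 ± 3.63% in pCAF and 17.8 ± 3.81% in NMF. Septin 5, the row with uncertain reads, held 20.0 ± 9.51% in pCAF and 18.1 ± 3.32% in NMF.

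**Figure D3:**
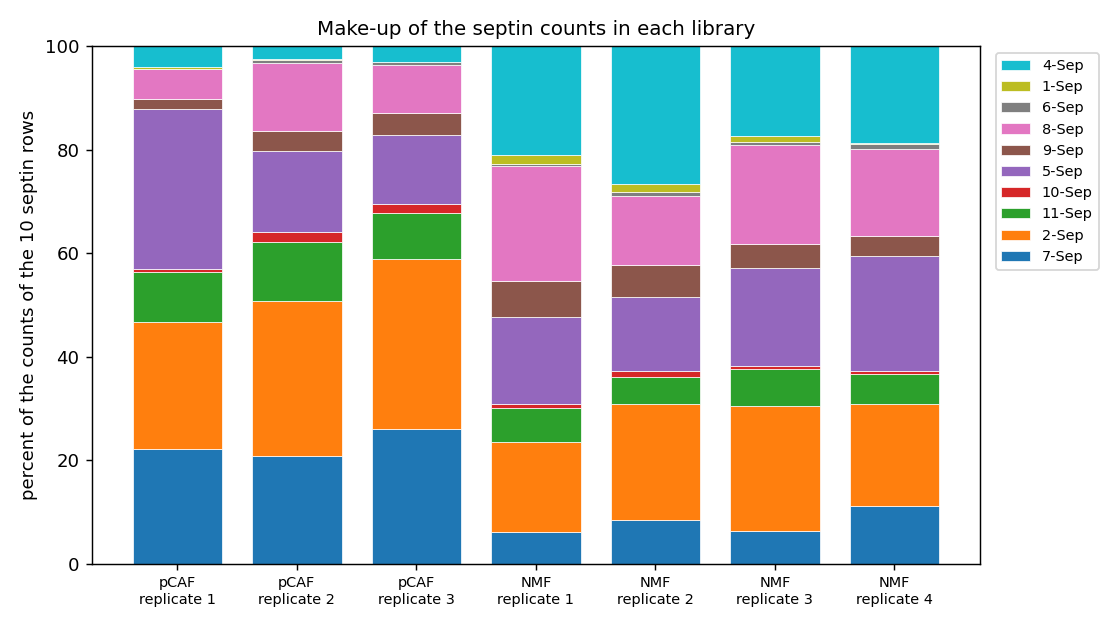
Percent of the counts of the 10 septin rows held by each row, 1 stacked bar per library, pCAF left and NMF right. The band of 4-Sep at the top covers between 2.56% and 4.13% in pCAF and between 17.4% and 26.6% in NMF, and the band of 7-Sep at the bottom is wider in every pCAF library.

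Summed by homology group, the SEPT2 group held 52.5 ± 6.28% of the septin counts in pCAF and 61.2 ± 3.26% in NMF. The SEPT6 group held 21.2 ± 5.45% in pCAF and 25.4 ± 4.17% in NMF. The septin 9 row held 3.34 ± 1.27% in pCAF and 5.39 ± 1.33% in NMF. These are descriptions of the rows chosen, and no test was made of them.

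Ratios inside a library do not depend on the scaling of libraries. Septin 7 counts were 11.7, 5.31 and 6.16 times those of septin 9 in pCAF and 0.889, 1.38, 1.33 and 2.84 times in NMF. Septin 7 counts were 5.38, 8.12 and 8.56 times those of septin 4 in pCAF and 0.288, 0.316, 0.359 and 0.592 times in NMF. In both ratios septin 7 was the more counted row in every pCAF library, and against septin 4 the less counted one in every NMF library. Within the SEPT2 group, septin 2 counts were 5.92, 11.7 and 10.8 times those of septin 4 in pCAF and 0.828, 0.845, 1.39 and 1.05 times in NMF. Within the SEPT6 group, septin 11 counts were 1.66, 0.868 and 0.968 times those of septin 8 in pCAF and 0.297, 0.392, 0.375 and 0.345 times in NMF. For all 4 ratios the lowest pCAF library exceeded the highest NMF library. This adds no separate evidence, since the upper row of each pair was one already called higher. Septins 7 and 2 lay above and septin 4 below without overlap, so the ratios to septin 4 had to separate. Ratios of other genes were not taken for comparison. The ratio of septin 7 to septin 2, at 0.908, 0.695 and 0.791 in pCAF and 0.348, 0.375, 0.258 and 0.565 in NMF, was also higher in each pCAF library.

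Genes that work with septins were read from the same fit in 6 lists of 65 genes, of which 55 were tested. Of these, 19 rose, 6 fell and 30 did not pass, beside 14.3% and 14.2% of all tested rows. The median log2 fold change was 0.56 over the tested partner genes and -0.02 over all tested rows. The Borg proteins, encoded by Cdc42ep genes, bind septins directly and link them to the small GTPase Cdc42. Of the 6 genes of this list 1 rose and 3 fell, with a median log2 fold change of -1.04.

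Cdc42 rose 1.98-fold, to 663, 607 and 656 CPM in pCAF, against 290, 303, 366 and 337 CPM in NMF (edgeR adjusted p = 0.00953). Cdc42ep2 stood at 35.5, 34.9 and 58.8 CPM in pCAF and at 90.0, 158, 163 and 168 CPM in NMF, and had a log2 fold change of -1.75 (SE 0.33, adjusted p = 0.00326). For both genes the groups did not overlap. Cdc42ep4 fell to 64.2 ± 25.1 CPM in pCAF, against 145 ± 26.6 CPM in NMF (edgeR adjusted p = 0.0176), and Cdc42ep1 fell to 18.7 ± 7.31 CPM, against 45.6 ± 13.6 CPM (adjusted p = 0.0254). The call of Cdc42ep4 did not hold without pCAF replicate 2 (adjusted p = 0.0733), pCAF replicate 3 (0.0733) or NMF replicate 1 (0.0661). That of Cdc42ep1 did not hold without pCAF replicate 2 (adjusted p = 0.0967) or NMF replicate 1 (0.0507), 2 (0.0567) or 4 (0.0502). Cdc42ep3, whose product was reported to bundle septins and actin in cultured tumor fibroblasts, stood at 0.555, 27.6 and 42.1 CPM in pCAF and at 62.6, 54.1, 38.4 and 21.1 CPM in NMF, with overlap (log2 fold change -0.90, adjusted p = 0.433). Without pCAF replicate 1, its lowest library, the log2 fold change was -0.33, and without pCAF replicate 3 it was -1.62. Cdc42ep5 did not pass either (log2 fold change -0.24, adjusted p = 0.676). Without both libraries that stood apart its log2 fold change was -0.87 and passed (edgeR adjusted p = 0.00592). In that fit 4 genes of this list were called lower, as were 2913 of 10838 tested rows. With all libraries these were 3 genes and 1491 of 10535 rows.

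Among the cytokinesis genes the called ones all rose. Of 9 tested of 11 genes 4 rose, 0 fell and 5 did not pass, with a median log2 fold change of 2.69. Anln, which encodes anillin, the protein that recruits septins to the cleavage furrow, rose 9.19-fold, to 19.4, 37.2 and 36.6 CPM in pCAF, against 2.70, 3.80, 5.28 and 1.87 CPM in NMF (edgeR adjusted p = 8.55e-04). Its groups did not overlap. Birc5 and Incenp, subunits of the chromosomal passenger complex, had log2 fold changes of 3.70 (adjusted p = 0.00138) and 2.16 (adjusted p = 0.00120). Without NMF replicate 3 the fold of Birc5 was 22.0, against 13.0 with all libraries. Ect2, which acts at the cleavage furrow, had a log2 fold change of 3.15 (adjusted p = 0.0247), at 11.2 ± 3.55 CPM in pCAF and 1.29 ± 1.34 CPM in NMF, and did not pass without pCAF replicate 2 (0.0835) or 3 (0.0692) or NMF replicate 1 (0.0699) or 2 (0.0744). Without NMF replicate 3 the fold of Ect2 was 18.4, against 8.90 with all libraries. Racgap1 and Prc1 had log2 fold changes of 2.82 and 2.69 but missed the threshold (adjusted p = 0.0535 and 0.0617). Both passed without pCAF replicate 1 (adjusted p = 0.0125 and 0.0242), NMF replicate 3 (0.0383 and 0.0204) or NMF replicate 4 (0.0393 and 0.0486). In pCAF replicate 1 Racgap1 stood at 9.43 CPM, below the 58.6 and 47.1 CPM of the other pCAF libraries. Without that library 9 genes of this list were called higher. Calls also rose over the whole table, to 2021 of 11048 tested rows higher, against 1503 of 10535 with all libraries.

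Stress fiber genes held the largest number of called partners. Of 15 tested of 16 actin bundling and stress fiber genes 9 rose, 0 fell and 6 did not pass, with a median log2 fold change of 0.97. Actn1, which encodes the actin crosslinker alpha-actinin, rose 8.39-fold, to 789, 555 and 649 CPM in pCAF, against 108, 80.2, 66.9 and 61.6 CPM in NMF (edgeR adjusted p = 7.07e-05). The tropomyosin genes Tpm1, Tpm4 and Tpm2, whose products wrap actin filaments, rose 5.34-fold, 6.57-fold and 5.83-fold. Tpm1 had 1074 ± 187 CPM in pCAF and 201 ± 16.2 CPM in NMF. A further tropomyosin gene, Tpm3, did not overlap between the groups but did not pass (log2 fold change 0.97, adjusted p = 0.0584). Its highest library was pCAF replicate 1, at 311 CPM, with 126 and 131 CPM in the other pCAF libraries. Without that library the log2 fold change was 0.41 (adjusted p = 0.152), and without both libraries that stood apart it was 0.30 (0.131), whereas it passed without pCAF replicate 2 (0.0436) or 3 (0.0483). The formin gene Diap1 did not pass (log2 fold change -0.88, adjusted p = 0.111). Without both libraries that stood apart it passed, with a log2 fold change of -0.73 (edgeR adjusted p = 0.00564).

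In the list of non-muscle myosin genes and their regulators, 3 rose, 1 fell and 6 did not pass of 10 tested of 12, and the median log2 fold change was -0.02. The myosin light chain genes differed among themselves. Myl9 rose 2.28-fold (edgeR adjusted p = 0.00569) and Myl12b fell to 117 ± 5.75 CPM in pCAF, against 299 ± 82.2 CPM in NMF (adjusted p = 0.00680). Myl6 rose 1.83-fold (adjusted p = 0.0323) but did not pass with library totals as the scale (0.107), with no count filter (0.0548), or without pCAF replicate 2 (0.113) or 3 (0.114) or NMF replicate 1 (0.0962), 2 (0.100) or 3 (0.0660). Myh9, the heavy chain gene, stood at 265, 627 and 731 CPM in pCAF and at 395, 320.5, 256 and 150 CPM in NMF and did not pass (adjusted p = 0.108). It passed without pCAF replicate 1, the lowest pCAF library (0.0134).

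The exocyst tethers secretory vesicles to the plasma membrane and was found with septins in rat brain. Of 9 tested of 12 exocyst and syntaxin genes 1 rose, 2 fell and 6 did not pass, with a median log2 fold change of -0.48. Exoc5 rose 3.87-fold, to 34.9, 29.9 and 51.0 CPM in pCAF, against 12.7, 9.29, 7.04 and 10.6 CPM in NMF (edgeR adjusted p = 0.00257). Exoc6 fell to 11.5 ± 5.51 CPM in pCAF, against 31.6 ± 5.54 CPM in NMF (adjusted p = 0.0207), and Exoc2 fell to 23.6 ± 4.62 CPM, against 50.7 ± 18.3 CPM (adjusted p = 0.0371). The call of Exoc6 was lost without pCAF replicate 2 (adjusted p = 0.0744) or 3 (0.0655) or NMF replicate 1 (0.0750) or 2 (0.0518). That of Exoc2 was lost with limma-voom (adjusted p = 0.0543), after thinning (0.0547), and without pCAF replicate 2 (0.0801) or 3 (0.130) or NMF replicate 1 (0.0801), 3 (0.0571) or 4 (0.0716). Exoc4 and Stx4a, which encodes a plasma membrane syntaxin, did not pass (adjusted p = 0.0711 and 0.168) but passed without pCAF replicate 1 (0.0322 and 8.69e-04). Of the 6 tested of 8 microtubule partners 1 rose, 0 fell and 5 did not pass, with a median log2 fold change of 0.35. Tuba1b, an alpha-tubulin gene, rose 2.93-fold, to 1785 ± 352 CPM in pCAF, against 609 ± 107 CPM in NMF (edgeR adjusted p = 0.00189). Tubb4b and Mapre3 did not overlap between the groups but did not pass (adjusted p = 0.0598 and 0.119). Tubb4b passed without pCAF replicate 1 (0.0127) or NMF replicate 4 (0.0349). Mapre3 passed without both libraries that stood apart (log2 fold change -0.89, edgeR adjusted p = 0.0497).

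**Figure D4:**
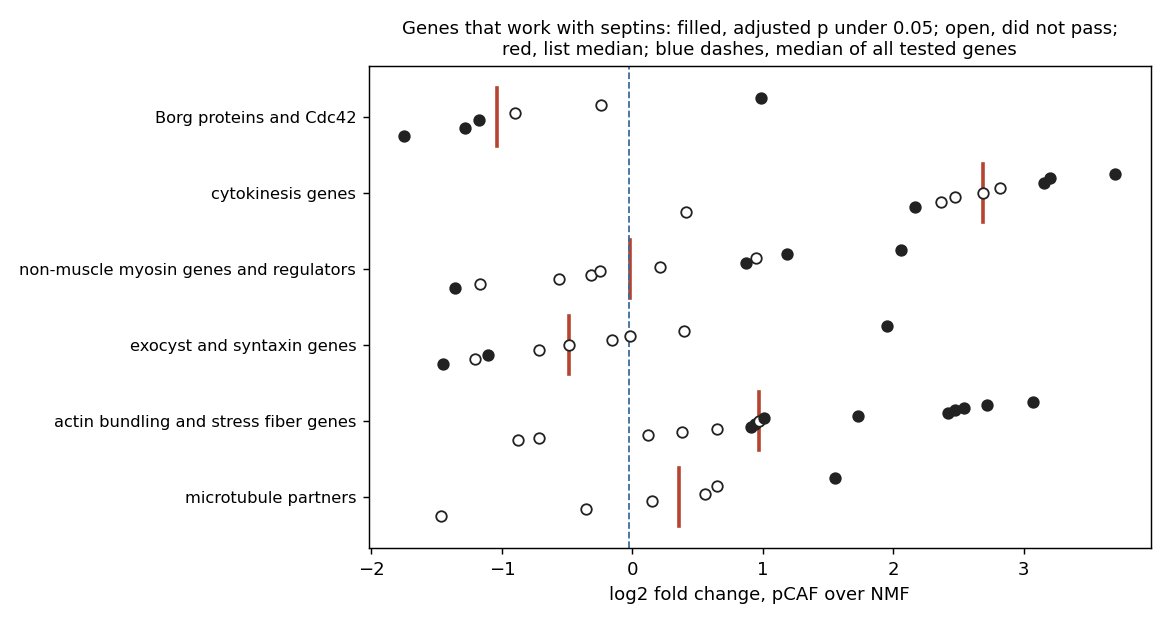
Log2 fold change, pCAF over NMF, of the 55 tested partner genes, 1 row per list; filled points passed the threshold, open points did not, red bars are list medians and the blue dashed line is the median of all tested rows, -0.02. Cytokinesis and stress fiber genes lie mostly to the right, with medians of 2.69 and 0.97, and 3 of the Borg genes lie to the left among the filled points.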

How the data were processed

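Messenger RNA was measured in 3 pCAF and 4 NMF libraries made from 3' ends. The authors deposited raw counts per gene symbol. The tools named in the submitters' processing notes are HTSeq, STAR 2.4.2a and bcl2fastq, with mm10 as build and no roles stated. Annotation, strand use, multi-mapping reads, molecular identifiers and filters: not given in the sources used here. Samples were grouped by title. The count model was edgeR 4.0.16 (R 4.3.3), after filterByExpr and TMM scaling, with its robust quasi-likelihood test (two-sided). P-values were adjusted by Benjamini-Hochberg across the 10535 tested rows. CPM values, computed here, are mean ± SD. Fold changes are fitted, pCAF over NMF.

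Septin rows were matched to the Sept symbols of GENCODE M21 for positions and 3' end overlaps, and copies of the last 300 bp were sought with blastn 2.17.0 (at least 80 bp and 95% identity). Promoters came from RefSeq for GRCm38.p6, matched by symbol for 7 of 10 rows. Diaph1 and Diaph3 were matched through the older symbols Diap1 and Diap3. The members, the 6 partner lists and the 9 marker lists were chosen with earlier results of these data known. Named partners are up to 4 called genes of a list by adjusted p and up to 2 others; some genes that this names are not reported here.

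The alternatives comprised scaling by upper quartile, library totals or DESeq2 size factors, testing with DESeq2 1.42.0 or limma 3.58.1 (voom), no filter, a mean of at least 10 CPM, thinning, the replicate number as a block, and leaving out libraries. The test was checked on simulated counts. Plots were drawn with matplotlib 3.10.9 from pandas 2.3.3 tables (Python 3.11.15).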

Additional observations from a re-analysis of the deposited data

Results flagged for a closer look

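Among 25 sets of NMF values of the septin rows and homology groups, 2 held a library whose distance to its nearest neighbour took up more of the group's range than Dixon's critical value at 95%, and chance flags about 1 in 20 groups. Both were NMF replicate 2. Its 10-Sep share of the septin counts was 1.08%, against 0.592% to 0.626% in the other NMF libraries, and rests on 12 counts of 10-Sep. Its summed level of the SEPT6 group was 95.8 CPM, against 136 to 142 CPM in the other NMF libraries.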

How the results depend on the processing

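The direction and call of 7-Sep, 11-Sep and 4-Sep held under all 17 alternatives. Of 147 refitted septin fold changes 135 kept direction and call, 5 lost the call (all of 2-Sep), 5 gained it (1-Sep and 10-Sep) and 2 changed sign; of 543 refits of named partner genes these were 475, 33, 34 and 1. Septin rows called lower numbered 2 after thinning and without both libraries that stood apart, and 1 to 2 with single libraries left out. Without those 2 libraries 2802 rows were higher, 2913 lower and 11 partner genes lower, against 1503, 1491 and 6. With single libraries left out, 979 to 2187 rows and 2 to 9 partner genes were lower. 9-Sep ran from -0.35 to 0.19 with single libraries left out and was 0.11 without both, and Cdc42ep5 ran from -0.78 to 0.046; the causes were not tested. Cytokinesis genes called higher numbered 7 with DESeq2 and 9 without both libraries, against 4, and exocyst genes called lower ran from 0 to 4, against 2. With library totals 37.1% of calls were higher, against 50.2%, and the median of all rows was -0.26, against -0.02; all septin directions held. No label said whether the replicate numbers pair the groups. Same-numbered libraries had correlations of -0.09, 0.08 and -0.01 after removal of group means. With 1 library standing apart in each group, these values cannot exclude a shared batch. As a block the replicate numbers gave 978 rows higher and changed no septin call. The partner genes Cdc42ep1 (edgeR adjusted p = 0.0984), Ect2 (0.0588), Myl6 (0.0605) and Exoc2 (0.123) lost the call with the block, and Racgap1 (0.0424) gained it. NMF replicate 4 has a term of its own there. Depth limits 1-Sep, 6-Sep and 10-Sep, with 1 to 29 counts a library.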

Other observations

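Other rows with September dates fell outside the 10. The row 3-Sep, septin 3, held 0, 0 and 0 counts in pCAF and 0, 2, 3 and 0 counts in NMF. The rows 12-Sep and 14-Sep had no count in any library. The row 15-Sep, the selenoprotein gene, held 679, 1121 and 1181 counts in pCAF and 1241, 1074, 1523 and 1158 counts in NMF. A further 13 rows were named as dates in March.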
